A study of Mus musculus with 24 samples.

Results

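CFP1 peaks of NKp46+ group 3 innate lymphoid cells (ILC3s) were compared between Cxxc1 knockout (KO) and control (WT) mice. The 4 libraries titled as NKp46+ ILC3s with the CFP1 antibody, of 24 libraries in the series, made up the comparison: 2 KO and 2 WT, each with a replicate number 1 or 2. WT cells were Cxxc1flox/flox, with floxed alleles and no Cre, and KO cells carried the same floxed alleles together with a Cre. Cells that carry the Cre without floxed alleles were not analysed here. The same Cre was used for all 3 subsets of the series, so the deletion is not limited to NKp46+ cells. All mice were given as 6 to 8 weeks old in the labels, although the protocols in the same labels also speak of aged and young mice and of a culture medium, so age and handling are not settled. ILC3s were sorted from the lamina propria of the small intestine, and the protocols give 100000 cells per library. Whether the 2 replicates of a genotype are separate animals or pools is not said in the labels, so every p below measures only the spread between these libraries, which may be technical.

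CFP1, the product of Cxxc1, binds unmethylated CpG dinucleotides through a CXXC zinc finger and is a subunit of the SET1 complexes, which place trimethyl marks on lysine 4 of histone H3 (H3K4me3) at active, CpG-rich gene starts. ILC3s are innate lymphocytes of mucosal tissues that secrete interleukin-22. The NKp46+ subset carries the natural cytotoxicity receptor NKp46, encoded by Ncr1, and can express the type 1 factor T-bet, encoded by Tbx21. In CUT&Tag, an antibody tethers a transposase to the chromatin that holds its target, and the released fragments pile up into peaks. The unit of observation here was the presence or absence of a peak in each deposited list, because the lists hold no read counts. A peak that is not listed was therefore not called at the depth of that library, and that depth is unknown.

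The promoters of 6 genes illustrate the presence patterns that the 4 lists gave. Each is the 250 b before and 50 b after the annotated start, from RefSeq on GRCm38.p6 (the coordinates of mm10), read 5′ to 3′ on the strand of the gene, with every CpG in capitals. Hmgxb4, an HMG-box gene (chr8:74993400-74993699, plus strand), and Armh3, an armadillo-like helical domain gene (chr19:45998439-45998738, minus strand), held CFP1 in both WT and neither KO library. Their promoters had 22 and 25 CpGs.
Hmgxb4: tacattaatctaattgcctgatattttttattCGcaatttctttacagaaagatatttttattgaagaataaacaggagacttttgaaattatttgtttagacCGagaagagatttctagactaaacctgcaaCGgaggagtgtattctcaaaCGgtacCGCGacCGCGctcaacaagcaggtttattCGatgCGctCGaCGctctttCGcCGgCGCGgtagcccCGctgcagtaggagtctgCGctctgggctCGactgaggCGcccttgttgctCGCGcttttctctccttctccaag
Armh3: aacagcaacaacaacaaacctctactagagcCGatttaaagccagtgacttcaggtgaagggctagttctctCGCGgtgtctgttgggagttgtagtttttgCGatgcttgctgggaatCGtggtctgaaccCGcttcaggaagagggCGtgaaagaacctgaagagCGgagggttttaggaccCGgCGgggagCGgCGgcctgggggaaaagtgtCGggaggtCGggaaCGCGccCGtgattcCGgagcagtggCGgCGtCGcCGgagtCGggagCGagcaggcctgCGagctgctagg
Kat7, a histone acetyltransferase (chr11:95310197-95310496, minus strand), and Zcwpw2, a CW zinc finger gene (chr9:118040810-118041109, minus strand), held CFP1 in all 4 libraries and had 14 and 25 CpGs.
Kat7: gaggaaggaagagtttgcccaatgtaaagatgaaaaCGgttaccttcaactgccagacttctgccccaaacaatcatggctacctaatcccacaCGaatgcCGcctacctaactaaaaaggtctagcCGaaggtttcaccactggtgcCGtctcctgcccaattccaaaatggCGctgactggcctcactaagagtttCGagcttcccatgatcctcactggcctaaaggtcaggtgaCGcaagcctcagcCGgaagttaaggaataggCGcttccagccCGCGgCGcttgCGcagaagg
Zcwpw2: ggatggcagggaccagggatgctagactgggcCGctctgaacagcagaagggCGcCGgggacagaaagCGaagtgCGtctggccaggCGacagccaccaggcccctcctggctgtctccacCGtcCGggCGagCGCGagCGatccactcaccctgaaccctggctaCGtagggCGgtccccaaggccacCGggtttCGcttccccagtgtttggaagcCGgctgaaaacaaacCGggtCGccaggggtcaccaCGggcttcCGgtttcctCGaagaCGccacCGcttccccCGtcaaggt
Ifi206, an interferon-inducible gene (chr1:173491269-173491568, minus strand), and Wars2, a mitochondrial tryptophanyl-tRNA synthetase (chr3:99140840-99141139, plus strand), held CFP1 in replicate 2 of both genotypes and in neither library of replicate 1. They had 1 and 20 CpGs.
Ifi206: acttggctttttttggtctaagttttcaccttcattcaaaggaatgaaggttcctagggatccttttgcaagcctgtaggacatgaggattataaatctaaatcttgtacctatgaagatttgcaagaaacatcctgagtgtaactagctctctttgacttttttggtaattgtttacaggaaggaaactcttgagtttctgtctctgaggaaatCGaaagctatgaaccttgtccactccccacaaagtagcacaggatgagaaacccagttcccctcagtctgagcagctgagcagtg
Wars2: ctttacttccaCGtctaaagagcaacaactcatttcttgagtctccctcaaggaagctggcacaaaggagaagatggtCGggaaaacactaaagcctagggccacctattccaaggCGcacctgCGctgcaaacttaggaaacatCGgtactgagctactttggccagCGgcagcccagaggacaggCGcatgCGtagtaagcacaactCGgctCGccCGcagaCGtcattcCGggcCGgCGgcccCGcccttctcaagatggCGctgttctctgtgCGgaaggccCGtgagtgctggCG
The CpG number thus did not follow the presence pattern across these 6 promoters. Over whole classes of genes, the median was 25 CpGs per promoter where only the 2 WT libraries listed CFP1, 25 where all 4 libraries did and 21 where only the 2 libraries of replicate 2 did.

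The first question was whether CFP1 peaks were fewer in KO cells. WT replicate 1 held 4749 peaks and WT replicate 2 held 5526, KO replicate 1 held 714, and KO replicate 2 held 4891. KO replicate 1 stood far below the 3 others, and KO replicate 2 lay between the 2 WT libraries, so the groups overlapped. Peak lists cannot show whether Cxxc1 was deleted in the cells of KO replicate 2 or whether its label is right, so every KO value and WT-only count below holds for the libraries as labelled. The log2 ratio of KO to WT was −2.73 in replicate 1 and −0.18 in replicate 2, with a mean of −1.46 ± 1.279 (SE over 2 pairs) and group means of 2802 ± 2954 (SD, n = 2) KO and 5138 ± 549.4 (SD, n = 2) WT peaks. Permuting the 4 genotype labels (exact two-sided test) gave p = 0.667, and 2 against 2 libraries cannot give a p below 0.333.

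**Figure D1:**
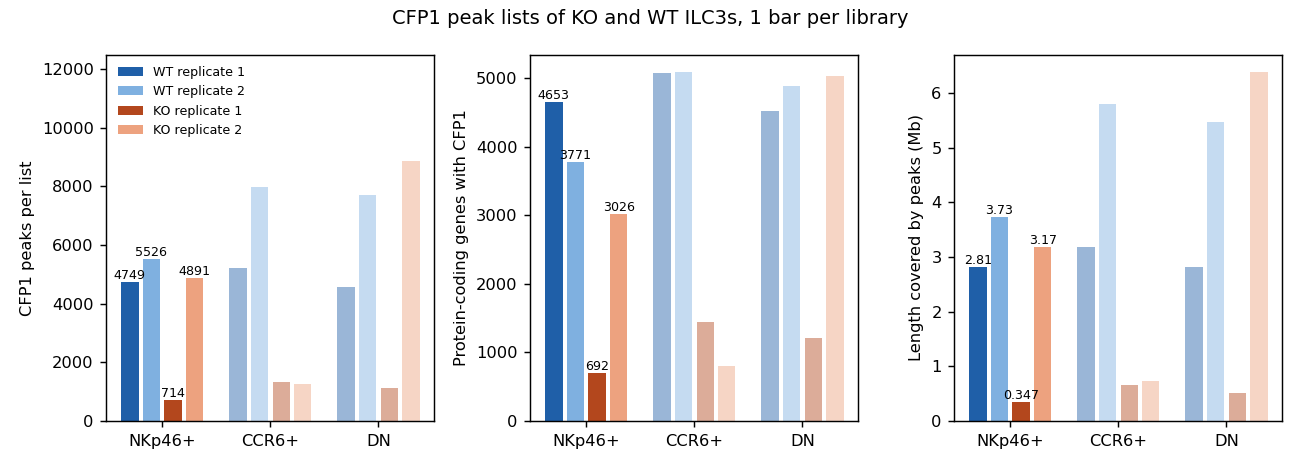
Number of CFP1 peaks, number of protein-coding genes with a CFP1 peak within 1000 b of a gene end, and length covered by peaks (Mb), 1 bar per library, for NKp46+ cells (full colour, values printed) and, for orientation, the CCR6+ and DN subsets (pale). KO replicate 1 of NKp46+ cells is low in all 3 panels, at 714 peaks, and KO replicate 2 lies close to the WT libraries, at 4891 peaks.

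Counted by gene, both KO libraries lay below both WT libraries. A gene was taken to hold CFP1 where a peak overlapped the 1000 b on either side of either annotated end of a protein-coding gene by 1 b or more, and neighbouring genes can share a peak. WT replicates 1 and 2 held CFP1 at 4653 and 3771 of 21631 genes, and KO replicates 1 and 2 at 692 and 3026. The groups did not overlap, with a log2 ratio of −2.75 in replicate 1, −0.32 in replicate 2 and −1.53 ± 1.22 (SE over 2 pairs) on average. The exact permutation p of 0.333 is the smallest this design can give. When only the top 714 peaks of each list were used, the number in the shortest list, the log2 ratio was −0.18. That cut makes the peak numbers equal, which by itself moves the ratio towards 0, so it cannot show whether genes were lost.

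The lists also differed between replicate numbers, whatever the genotype. In replicate 1, 81.3% of WT peaks (95% Wilson interval 80.2 to 82.4) and 76.2% of KO peaks (72.9 to 79.2) lay at gene ends, against 56.9% (55.6 to 58.2) and 51.2% (49.8 to 52.6) in replicate 2. Replicate 2 held more peaks elsewhere in genes, at 24.4% in WT and 27.4% in KO against 12.8% and 15.8%, and more outside genes, at 18.8% and 21.4% against 5.83% and 7.98%. KO less WT was −5.13 percentage points at gene ends in replicate 1 and −5.66 in replicate 2, a mean of −5.40 (exact permutation p = 0.667), smaller than the difference between the replicate numbers. Most summits at gene starts with a known strand lay just past the start: the median offset among summits within 1000 b was 82 b downstream in WT replicate 1, 70.5 b in WT replicate 2, 26.5 b in KO replicate 1 and 53 b in KO replicate 2.

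Nearly all peaks of replicate 1 lay in H3K4me3 of the same genotype. The share was 97.9% (95% Wilson interval 97.4 to 98.2) in WT replicate 1 and 96.5% (94.9 to 97.6) in KO replicate 1, and 85.5% (84.6 to 86.4) in WT replicate 2 and 84.8% (83.8 to 85.8) in KO replicate 2. KO less WT was −1.35 points in replicate 1 and −0.75 in replicate 2, a mean of −1.05 ± 0.301 points (SE over 2 pairs). That mean did not exceed the spread among the 4 libraries (exact permutation p = 0.667), which includes the difference between replicate numbers. Without WT replicate 1 the difference turned to 5.102 points and without KO replicate 2 to 4.80, since each leaves groups that differ in replicate number. H3K4me3 lists were longer in KO, with 16635 and 18127 peaks against 12838 and 15397 in WT. KO and WT peaks were therefore not scored against the same regions, and the part of that length in the shares was not tested. Peaks were 538 b and 605 b wide at the median in WT and 450 b and 578 b in KO, and covered 2.81 and 3.73 Mb against 0.347 and 3.17 Mb.

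**Figure D2:**
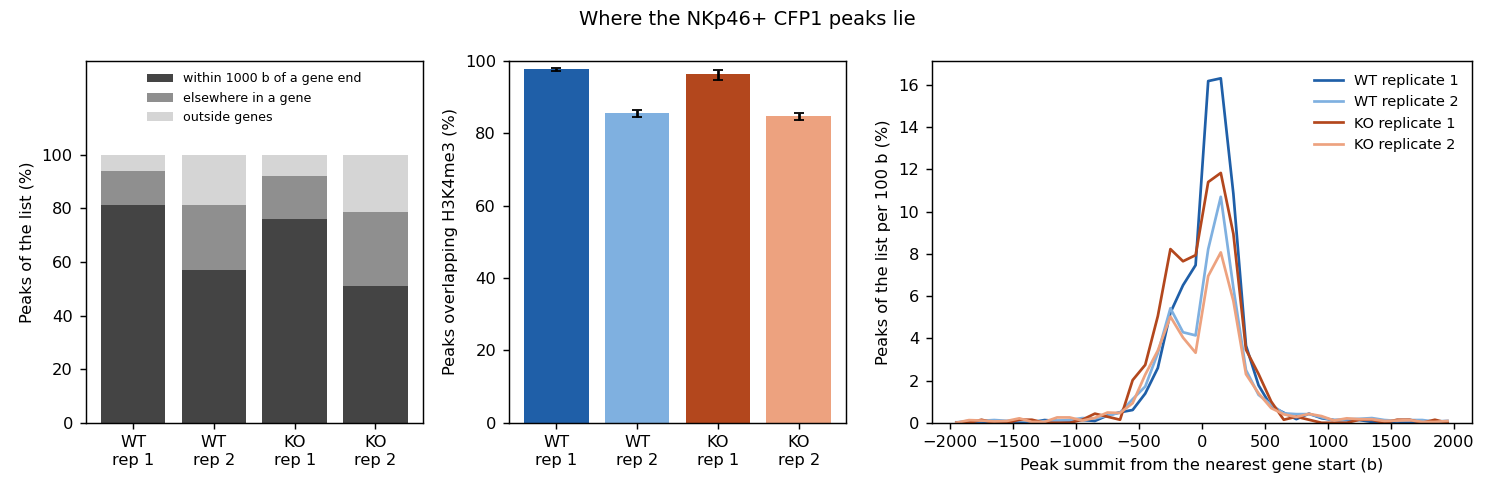
Left, share of the peaks of each NKp46+ CFP1 list (%) within 1000 b of a gene end, elsewhere in a gene, and outside genes. Middle, share of peaks overlapping H3K4me3 of the same genotype (%), with 95% Wilson intervals. Right, share of the peaks of a list (%) per 100 b of summit distance from the nearest gene start of known strand, in b, negative upstream. The replicate 2 libraries of both genotypes have fewer peaks at gene ends and in H3K4me3 than those of replicate 1.

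Merging the 4 lists gave 8298 regions, and the most frequent pattern was presence in every library but KO replicate 1. That pattern held 1680 regions, presence in all 4 libraries 575, and presence in both WT and neither KO library 789 (9.51% of all regions). The reverse, both KO and neither WT library, held for 6 regions (0.0723%). Single lists accounted for 1373 regions in WT replicate 1, 1165 in WT replicate 2, 1092 in KO replicate 2 and 23 in KO replicate 1. A further 1245 regions were listed in replicate 2 of both genotypes only, more than the 789 that followed genotype. WT replicate 2 shared 51.2% of its regions with KO replicate 2, taken over the regions in either list, and 43.0% with WT replicate 1. WT replicate 2 was thus closer to the KO library of its own number than to the other WT library.

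The short KO list was almost wholly contained in the longer ones. Of its 714 peaks, 91.7% overlapped a peak of WT replicate 1, 90.3% one of WT replicate 2 and 87.1% one of KO replicate 2. In turn 13.8% of the WT replicate 1 peaks and 11.7% of the WT replicate 2 peaks overlapped a peak of KO replicate 1. Of the KO replicate 2 peaks, 72.2% overlapped WT replicate 2 and 51.3% WT replicate 1. Of the 714 peaks with the highest −log10 q in KO replicate 2, 99.3% were found in the full list of WT replicate 2.

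**Figure D3:**
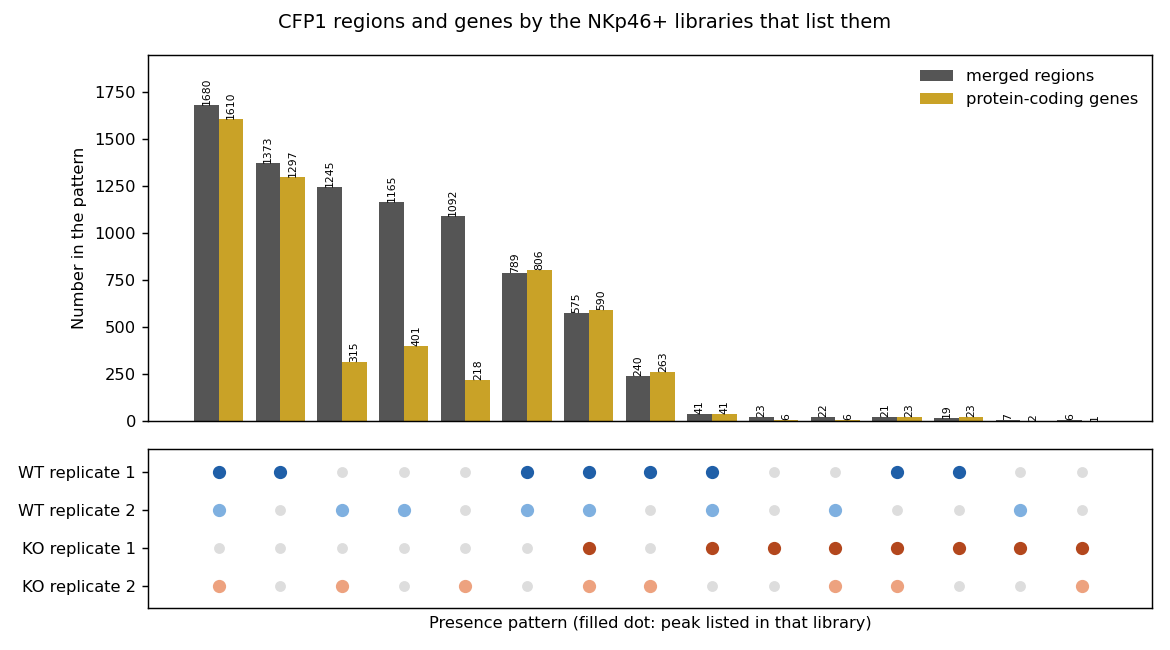
Number of merged regions (grey) and of protein-coding genes (gold) by the NKp46+ libraries that list a CFP1 peak there; filled dots under each pair of bars mark those libraries. The pattern of both WT and neither KO library holds 789 regions and 806 genes, and that of replicate 2 of both genotypes only holds 1245 regions and 315 genes.

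WT peaks of high fold enrichment were found in the KO lists more often than weak ones. Fold enrichment is the authors' own value for a peak, used here to rank peaks within 1 list. Of the weakest decile of WT replicate 1 peaks, 39.5% overlapped a peak of KO replicate 2 and 5.27% one of KO replicate 1, against 75.6% and 35.0% of the strongest decile. For WT replicate 2 the same shares were 33.9% and 1.63% in the weakest decile and 94.2% and 42.9% in the strongest. In each decile of WT replicate 2, KO replicate 2 held a larger share than WT replicate 1 did. In each decile of WT replicate 1, WT replicate 2 held a larger share than KO replicate 2 did. The rise with fold enrichment was also present between the WT lists. WT replicate 2 held 50.2% of the weakest and 85.5% of the strongest decile of WT replicate 1, and WT replicate 1 held 20.15% and 91.1% in reverse. The WT peaks without a KO overlap were narrower, with median widths of 465 b in replicate 1 and 499 b in replicate 2 against 623 b and 689 b for those with one.

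**Figure D4:**
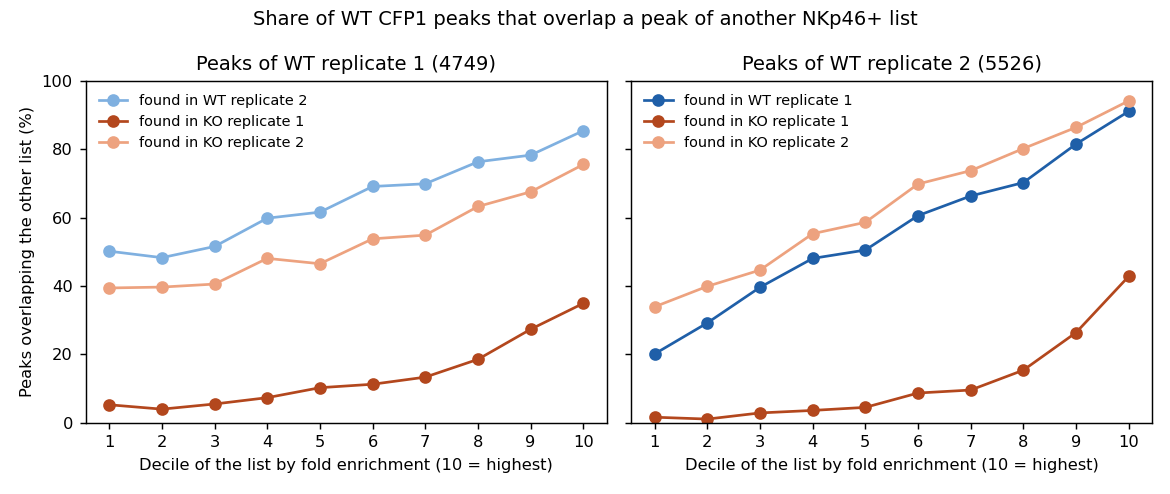
Share of the peaks of WT replicate 1 (left) and WT replicate 2 (right) that overlap a peak of another NKp46+ list (%), by decile of the list in order of fold enrichment, 10 being the highest. The share found in KO replicate 1 stays below 10% in the lower 4 deciles and reaches 35.0% and 42.9% in the highest, and KO replicate 2 reaches 75.6% and 94.2%.

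At the gene level, 5602 genes held CFP1 in at least 1 of the 4 libraries and 3047 in both WT libraries. The pattern of both WT and neither KO library, called WT-only from here on, comprised 806 genes, which is 14.4% of the 5602 and 26.5% of the 3047. The reverse pattern held for 1 gene, Guk1 (0.0179%). Within replicate 1, 3976 of the 4653 WT genes held no peak in KO (85.5%), and within replicate 2 it was 1250 of 3771 (33.1%). In the other direction, 15 of 692 KO genes held no peak in WT in replicate 1 (2.17%) and 505 of 3026 in replicate 2 (16.7%). The count of 806 changed with list length and with the libraries used. With the top 714 peaks of each list it was 66, against 13 in reverse, and without KO replicate 2 it was 2416. Without WT replicate 2 it was 2103, and without KO replicate 1 the reverse count was 219. Shorter WT lists lower such a count and leaving out a library can only raise it, so these values do not test the 806 genes.

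Cxxc1 itself, on chromosome 18, held no CFP1 peak at its ends in any of the 4 NKp46+ libraries and H3K4me3 in all 4. Neither observation checks the deletion, since peak presence does not read the floxed exons.

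Among the WT-only genes, 8 were named for the highest within-list rank of their peaks. Mrps28, a protein of the small mitochondrial ribosomal subunit, held the peak of highest fold enrichment in WT replicate 1, 16.4 (chr3:8923400-8923949), and one of 9.51 in WT replicate 2 (chr3:8923511-8923879), at percentile 95.7 of that list. Hmgxb4 held peaks of 10.9 and 9.49 in WT replicates 1 and 2, and Armh3 of 11.03 and 8.55. Each therefore lay above percentile 90 in both WT lists, in a range where most WT replicate 2 peaks were found in KO replicate 2. Rpl30, a protein of the large cytosolic ribosomal subunit, had 11.2 and 8.46, and Kpna3, an importin that carries proteins into the nucleus, had 9.42 and 10.01. Zdhhc6, a palmitoyltransferase, and Vti1a, a vesicle SNARE protein, share 1 peak, with 10.95 and 8.41. Smim13, a small membrane protein gene, had 11.85 and 7.92. With the top 714 peaks of each list, Mrps28 and Kpna3 were still in both WT and neither KO library and the other 6 were not. No KO list held a peak at or inside any of these 8 genes, and all 8 held H3K4me3 in all 4 libraries. DN cells listed CFP1 at Mrps28, Kpna3, Zdhhc6 and Vti1a in both KO libraries, so their absence in NKp46+ KO cells was not shared by that subset.

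At the 6 genes of highest rank that held CFP1 in all 4 libraries, KO peaks were also high within their own lists. Kat7 lay at percentiles 99.9 and 99.8 of the WT lists, 88.8 of KO replicate 1 and 99.8 of KO replicate 2, with peaks of much the same position in all 4 (chr11:95309669-95310396 in WT replicate 1, chr11:95309765-95310358 in KO replicate 1). Zcwpw2 and Azi2, an adaptor of the kinase TBK1, share a peak at percentiles 99.8, 99.98, 93.8 and 99.02 in the order WT replicates 1 and 2, KO replicates 1 and 2. H2az2, which encodes a variant of histone H2A.Z, had 99.96, 99.6, 95.9 and 98.9. Rpl22l1, a paralogue of a ribosomal protein, had 99.9, 99.9, 90.6 and 99.6. Gbe1, the glycogen branching enzyme, had the lowest KO percentiles of the 6, at 73.3 and 92.8. Over the 575 regions in all 4 libraries, the median percentile was 78.5 and 86.3 in the WT lists, 54.6 in KO replicate 1 and 83.3 in KO replicate 2.

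Guk1, which encodes guanylate kinase, was the gene listed in both KO and neither WT library of NKp46+ cells. Its peaks had fold enrichments of 5.74 in KO replicate 1 (chr11:59191573-59191977) and 3.79 in KO replicate 2 (chr11:59191350-59191862), at percentiles 60.4 and 13.95. In CCR6+ and DN cells CFP1 was listed at Guk1 in both WT libraries and neither KO library, the opposite direction. The other 5 regions with this pattern lay inside Gsap, Kif5a, Vav1 and Psd and in 1 intergenic stretch of chromosome 15, away from gene ends, and 4 of those 5 held H3K4me3 in both KO libraries.

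Genes and regions of replicate 2 alone had another make-up. Of the 1245 regions listed in replicate 2 of both genotypes only, 22.4% lay at gene ends, 42.5% elsewhere in genes and 35.1% outside genes, and 52.0% to 78.6% overlapped H3K4me3 across the 4 H3K4me3 libraries. Of the 789 WT-only regions, 86.8% lay at gene ends and 98.4% to 99.4% overlapped H3K4me3. Ccdc82, a coiled-coil gene, had the highest KO percentile of the replicate 2 genes, 98.7, with 89.6 in WT. Ifi206 had 98.5 in KO and 95.95 in WT, Wars2 97.5 and 89.7, and Rgs17, a regulator of G protein signalling that shares its peak with Mtrf1l, 97.3 and 91.8. Rgsl1 had 98.5 and 72.9, and it carried H3K4me3 in KO replicate 2 only. Genes found in KO replicate 2 alone had lower percentiles: Rfc4, a subunit of the clamp loader of DNA replication, had 86.4, Tsga10 86.2, Tdg, a glycosylase that excises thymine from mismatches, 84.6, the small GTPase Cdc42 84.1 and Zfp948 83.9. Rfc4 and Tdg held CFP1 in both WT libraries of CCR6+ and of DN cells. For Tsga10 the pattern depended on the window, as a peak was listed inside the gene in both WT and both KO libraries. With a window of 500 b, Cdc42 and Zfp948 also lost the pattern.

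H3K4me3 was listed at the genes where CFP1 was not. All 806 WT-only genes held H3K4me3 in both KO libraries, and 805 (99.88%) held it in all 4 NKp46+ libraries, close to 3043 of the 3047 genes (99.87%) with CFP1 in both WT libraries. Their median H3K4me3 width was 1018 b and 1436 b in WT replicates 1 and 2 and 1139 b and 1344 b in KO, so it was wider in KO in replicate 1 and narrower in replicate 2. Genes with CFP1 in all 4 libraries had wider H3K4me3 peaks in every library, 1230 b and 1707 b in WT and 1364 b and 1574 b in KO, with the same order of the 4 libraries. Genes with H3K4me3 and no CFP1 had narrower ones, 754 b and 1249 b in WT and 964 b and 1199 b in KO. H3K4me3 itself was WT-only at 19 genes, and 0 of the 19 held CFP1 in any NKp46+ library. The reverse pattern of H3K4me3 held at 408 genes, of which 2 held CFP1 in a WT library, against 54.8% of the 9728 genes with H3K4me3 in all 4. The H3K4me3 lists were themselves longer in KO, with 16635 and 18127 peaks against 12838 and 15397 in WT, and the part of that length in these counts was not tested.

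CpG number was the same in the median for WT-only genes and for genes with CFP1 in all 4 libraries, and lower where single lists held the peak. The 300 b promoters, matched for 82.0% of the WT-only genes and 84.9% of the genes in all 4 libraries, held a median of 25 CpGs in both classes, with quartiles of 19 to 32 and 20 to 32. Genes with H3K4me3 in all 4 libraries and no CFP1 had a median of 19, genes with neither mark 4, and all promoters 14. The median was 23 for genes in WT replicate 1 only, 21 for those in WT replicate 2 only and for those in replicate 2 of both genotypes, and 18 for those in KO replicate 2 only, which is below the 19 of H3K4me3 genes without CFP1. The letters CCGGAAG, the core that ETS factors recognise, were searched on both strands and occurred in 26.3% of promoters of WT-only genes, 21.0% of those in every library but KO replicate 1, 18.96% of those in all 4, 19.6% of those with H3K4me3 and no CFP1 and 12.1% of all promoters. GGGCGG, the GC box, occurred in 70.5%, 72.3%, 77.8%, 63.02% and 46.9% in the same order. GCGCATG, part of the NRF1 motif, occurred in 8.47%, 9.33%, 7.39%, 7.05% and 4.93%. Genes with CFP1 in KO replicate 2 only held CCGGAAG in 13.3%, GGGCGG in 58.8% and GCGCATG in 5.46%. None of these 3 letter strings contains another, though matches can share letters at their ends, and a match describes the window and not a bound site.

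Genes of the SET1 complexes, to which CFP1 belongs, and of the related MLL complexes were listed at 11 of 20 genes in WT replicate 1, 7 in WT replicate 2, 1 in KO replicate 1 and 4 in KO replicate 2. The shares were 55%, 35%, 5% and 20%, beside 21.5%, 17.4%, 3.20% and 14.0% of all genes. H3K4me3 was listed in both WT libraries at 85% of the 20, beside 45.3% of all genes. Of the 7 genes in both WT libraries, 2 were in neither KO library, beside 26.5% of all genes with CFP1 in both WT. These were Wdr82, which binds RNA polymerase II and tethers SET1 (fold enrichments 9.53 and 7.78 in WT replicates 1 and 2, chr9:106170697-106171423 in replicate 1), and Setd1a, a catalytic subunit (6.47 and 6.05). Pairs of values after a gene are, here and below, its fold enrichments in WT replicates 1 and 2. Rbbp5, Kmt2b, Kmt2c and Hcfc1 were missing in KO replicate 1 only, and Psip1 in KO replicate 2 only; these 5 were chosen after their values were seen. Of the opposing H3K4 demethylases and the CXXC proteins, 4 were in both WT libraries and 1, Kdm5b, in neither KO library, with low WT percentiles of 8.61 and 12.96. Kdm5a, named after its values were seen, was in all 4.

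**Figure D5:**
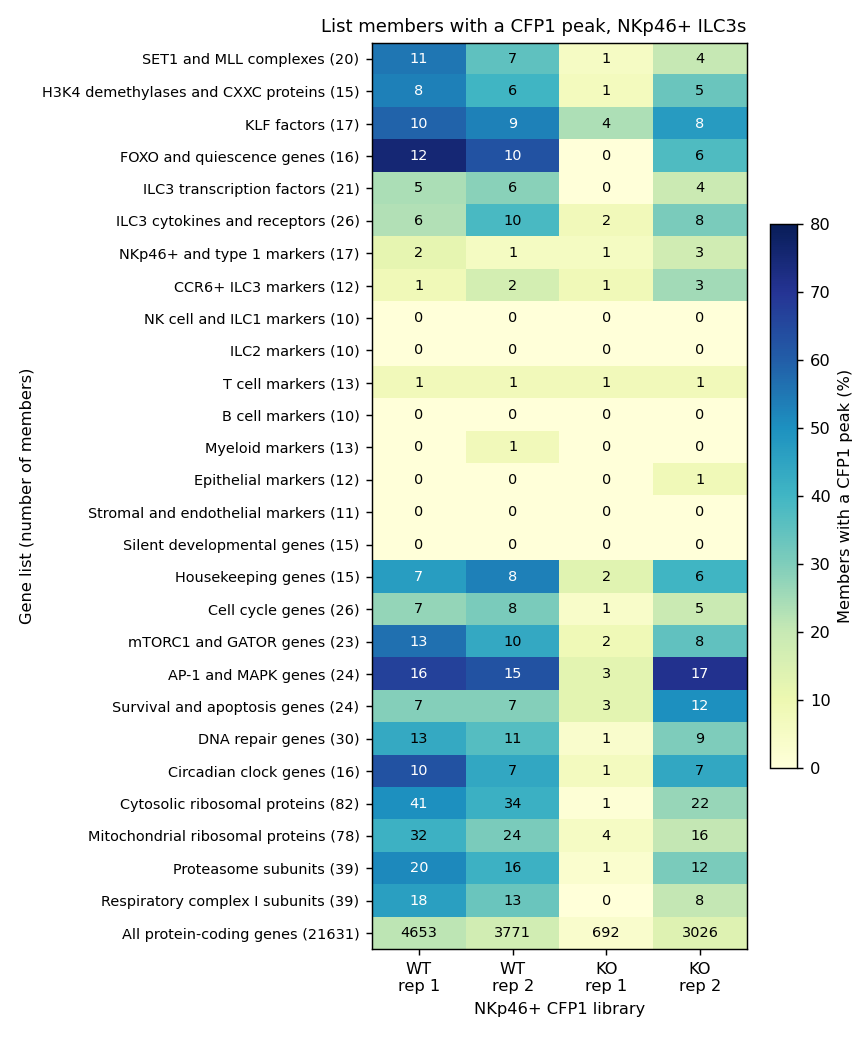
Number of members of each gene list with a CFP1 peak in each NKp46+ library (printed) and the same as a share of the list (colour, %), with all protein-coding genes in the last row; the list of 367 Zfp genes is left out. KO replicate 1 is lowest in most lists, and the marker lists of NK cells and ILC1, ILC2, B cells and stromal cells are at 0 in all 4 libraries.

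FOXO, BTG and KLF genes, which hold lymphocytes quiescent and guide their trafficking, carried CFP1 in WT cells more often than not. All genes held it at 21.5% and 17.4% in WT replicates 1 and 2, and at 3.20% and 14.0% in KO. H3K4me3 was listed in both WT libraries at 93.8% of the FOXO and quiescence genes and 70.6% of the KLF factors, beside 45.3% of all genes. Of the genes with H3K4me3 in all 4 libraries, 54.8% held CFP1 in at least 1 WT library. Of 16 FOXO and quiescence genes, 12 and 10 held CFP1 in WT replicates 1 and 2, and 0 and 6 in KO replicates 1 and 2. Of the 9 in both WT libraries, 3 were WT-only (33.3%), near the 26.5% of all such genes: Foxp1, a repressor that keeps naive T cells quiescent (5.32 and 7.06), and Btg1 and Btg2, which restrain proliferation (4.36 and 4.26, and 4.25 and 3.84). Foxp1 had a KO peak elsewhere in the gene. Of 17 KLF factors, 10 and 9 were listed in WT and 4 and 8 in KO. Klf2, which governs lymphocyte trafficking and quiescence, was the 1 of 9 missing from both KO libraries (11.1%, beside 26.5%; 4.30 and 4.87, chr8:72318792-72319382 in WT replicate 1). Klf7, Klf9, Klf11 and Klf13, named after their values were seen, held CFP1 in all 4 libraries. Within replicate 1, 6 of the 10 WT members had no KO peak (60%), beside 85.5% of all WT genes there.

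In WT cells, ILC3 transcription factors and ILC3 cytokines and receptors held CFP1 about as often as all genes, or more often, but all genes are not a matched background. H3K4me3 was listed in both WT libraries at 80.95% and 84.6% of these lists against 45.3% of all genes. Of the genes with H3K4me3 in all 4 libraries, 54.8% held CFP1 in at least 1 WT library. The lists held it in any of the 4 NKp46+ libraries at 8 of 21 transcription factors and 12 of 26 cytokines and receptors, both below that share. NKp46+ and type 1 markers held CFP1 less often than all genes, at 11.8% and 5.88% in WT replicates 1 and 2. CCR6+ markers did too, at 8.33% and 16.7%. Beside the lists below, all genes held it at 21.5% and 17.4% in WT replicates 1 and 2 and at 3.20% and 14.0% in KO. Of 21 ILC3 transcription factors, 5 and 6 held CFP1 in WT (23.8% and 28.6%) and 0 and 4 in KO, and 17 held H3K4me3 in both WT libraries. Ahr, a receptor for ligands from diet and microbes, was the 1 WT-only gene of 4 in both WT libraries (25%, beside 26.5%), with 8.18 and 4.86. Of 26 ILC3 cytokines and receptors, 6 and 10 were listed in WT (23.1% and 38.5%) and 2 and 8 in KO, and 1 of 4 was WT-only. Il10rb, a subunit shared by the interleukin-10 and interleukin-22 receptors, was missing from both KO libraries, and its peaks (4.67 and 3.84) also touch the window of Ifnar2. Stat3 and Lta were in all 4 libraries, and Il7r, Il2rb, Ltb, Stat5a and Stat5b in replicate 2 of both genotypes only, these 7 being named after their values were seen. Lta lay at percentile 0.137 in WT replicate 1, against 89.6 in WT replicate 2 and 73.4 and 92.35 in KO. Stat5a and Stat5b had identical fold enrichments, 5.46 in WT replicate 2 and 5.45 in KO replicate 2, so they may share 1 peak.

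The label NKp46+ was checked at the genes that define it. Ncr1 and Tbx21 held H3K4me3 in all 4 NKp46+ H3K4me3 libraries and no CFP1 peak in any CFP1 library, while Ccr6, which defines another subset, held H3K4me3 in WT replicate 2 only. The full lists did not favour the labelled subset: H3K4me3 was listed in both WT libraries at 8 of 17 NKp46+ and type 1 markers (47.1%) and at 7 of 12 CCR6+ markers (58.3%), beside 45.3% of all genes. Klrd1, Klrk1, Klrc1, Cd226 and Stat4 of the NKp46+ list held none in any library, and these 5 were chosen after their values were seen. Of 17 NKp46+ and type 1 markers, 2 and 1 held CFP1 in WT and 1 and 3 in KO. Markers of NK cells and ILC1 (10), ILC2 (10), B cells (10) and stromal and endothelial cells (11) and 15 silent developmental genes held CFP1 at 0 members in every library. T cell markers had 1 of 13 in each library, Cd3d, myeloid markers 1 of 13 in WT replicate 2, and epithelial markers 1 of 12 in KO replicate 2. H3K4me3 was listed in both WT libraries at 6 of 13 T cell markers, 4 of 10 ILC2 markers, 3 of 10 NK cell and ILC1 markers, 2 of 11 stromal and endothelial markers, 2 of 12 epithelial markers (Epcam in all 4 libraries), and 0 of the B cell and myeloid markers. The part of other cells in the sorts was not tested.

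Cytosolic ribosomal protein genes held CFP1 at a larger share than all genes in WT and a smaller one in KO replicate 1. Of 82 such genes, 41 and 34 held CFP1 in WT (50% and 41.5%), and 1 and 22 in KO replicates 1 and 2 (1.22% and 26.8%). All genes held it at 21.5% and 17.4% in WT and 3.20% and 14.0% in KO. H3K4me3 was listed in both WT libraries at 89.0% of the 82, beside 45.3% of all genes, so all genes are not a matched background. Of the genes with H3K4me3 in all 4 libraries, 54.8% held CFP1 in at least 1 WT library. Of the 28 in both WT libraries, 13 (46.4%) were WT-only, beside 26.5% of all genes in both WT libraries. Within replicate 1, 40 of 41 WT members had no KO peak (97.6%, beside 85.5%), and within replicate 2, 16 of 34 (47.1%, beside 33.1%). Besides Rpl30 the named members were Rpl5 (6.74 and 5.40) and Rpl10 (5.28 and 6.504). Mitochondrial ribosomal genes held CFP1 at 32 of 78 members in WT replicate 1 (41.0%, beside 21.5% of all genes). In KO replicate 1 it was 4 (5.13%, beside 3.20%). Within replicate 1, 28 of the 32 had no KO peak (87.5%, beside 85.5%). Of those in both WT libraries, 5 of 17 were WT-only (29.4%), among them Mrps28, Mrps16 and Mrpl57. Proteasome subunits had 5 of 14 WT-only (35.7%), among them Psmd7 (10.3 and 4.89), Psmd13 and Psmc1. Subunits of respiratory complex I had 4 of 10 (40%), among them Ndufs1 (8.15 and 10.9), Ndufa4 (11.54 and 6.93) and Ndufb1, and 0 of 39 members in KO replicate 1. Ndufs1 shares its peak with Eef1b2, Ndufa4 with Phf14 and Ndufb1 with Cpsf2. Zfp genes, a family of zinc finger factors, had 14 of 57 (24.6%), close to the share of all genes, with Zfp959 (12.3 and 7.42), Zfp740 and Zfp771 named. The highest peaks of Zfp771 lay near opposite ends of the gene, at chr7:127254108-127254529 in WT replicate 1 and chr7:127243946-127244405 in WT replicate 2. With a window of 500 b, or with peak summits, Zfp959 and Zfp771 were not WT-only.

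AP-1 and MAPK genes, which respond to stress and activation, were listed in KO replicate 2 about as often as in WT. Of 24 AP-1 and MAPK genes, 16 and 15 held CFP1 in WT, 3 in KO replicate 1 and 17 in KO replicate 2. The shares were 66.7%, 62.5%, 12.5% and 70.8%, beside 21.5%, 17.4%, 3.20% and 14.0% of all genes. H3K4me3 was listed in both WT libraries at 87.5% of the 24, beside 45.3% of all genes. Only Mapk8, the kinase JNK1 (5.79 and 7.05), of 13 in both WT libraries was in neither KO library, and within replicate 2 it was 1 of 15 (6.67%, beside 33.1%). Within replicate 1, 13 of 16 had no KO peak (81.3%, beside 85.5%). Of 24 survival and apoptosis genes, 7 and 7 held CFP1 in WT (29.2% each) and 3 and 12 in KO (12.5% and 50%). H3K4me3 was listed in both WT libraries at 79.2% of these 24. Of the 5 with CFP1 in both WT libraries, 0 were missing from both KO libraries, beside 26.5% of all such genes. Of the 12 in KO replicate 2, 5 were not in WT replicate 2, beside 16.7% of all genes, among them Bmf, Bcl2l11 and Bid, which were in no other library, and Birc5, which was also in WT replicate 1; these were named after their values were seen. The share of 26.5% is also the one to read the next counts of WT-only genes against. Circadian clock genes had 0 of 6 and housekeeping genes 1 of 6. The genes of mTORC1 and its GATOR regulators had 3 of 10, Mios of GATOR2 (9.11 and 7.77) and the Rag GTPases Rragc (8.04 and 6.86) and Rraga (5.79 and 4.07). DNA repair genes had 3 of 9, the Fanconi helicase Fancm (7.51 and 8.13, sharing its peak with Fkbp3), the mismatch protein Msh6 and the checkpoint kinase Chek1. Cell cycle genes had 2 of 5, the cyclins Ccne2 (6.38 and 6.40) and Ccna2 (5.28 and 5.92, sharing its peak with Bbs7). Ccna2 was not WT-only with a window of 500 b, nor Ccne2 with peak summits. No list carries a test, since 2 libraries were compared with 2.

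The NKp46+ libraries were set beside the other subsets to see where they differed. The log2 ratio of KO to WT peak number was −1.99 and −2.68 in replicates 1 and 2 of CCR6+ cells and −2.02 and 0.21 in those of DN cells. NKp46+ less the mean of the other pairs was 0.17 on the log2 scale (exact two-sided permutation of 6 pairs in 15 arrangements, p = 1.0). The smallest p of these arrangements is 0.0667, above 0.05, so the test cannot show a difference between subsets. The means were −1.46 in NKp46+, −2.33 in CCR6+ and −0.91 in DN cells. NKp46+ cells thus lay between the subsets that were pooled. Of the 806 WT-only genes, 584 (72.5%) held CFP1 in both CCR6+ WT libraries and 547 (67.9%) in both DN WT libraries, fewer than the 98.6% and 98.5% of the genes with CFP1 in all 4 NKp46+ libraries. Both WT and neither KO library was the pattern of 441 of them in CCR6+, of 89 in DN and of 56 in all 3 subsets. Of the genes in both WT libraries of the other subset, that is 75.5% in CCR6+, beside 59.1% over all genes, and 16.3% in DN, beside 10.4%. Of the KO replicate 2 peaks of NKp46+ cells, 87.3% overlapped KO replicate 2 of DN cells and 22.6% KO replicate 2 of CCR6+ cells.

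WT CFP1 sites were largely the same genes in all subsets. Of the 3047 genes with CFP1 in both NKp46+ WT libraries, 2445 (80.2%) held it in all 4 CCR6+ and DN WT libraries and 11 in none. By rank these 11 included Zfp346, which binds double-stranded RNA (6.64 and 4.02), Gzmb, which encodes the cytotoxic protease granzyme B (5.28 and 4.57), Nfxl1, Tmem262, which shares its peak with Vps51, and Wif1, a secreted inhibitor of Wnt (4.84 and 4.20). Gzmb was also listed in KO replicate 2 of NKp46+ cells (3.52, percentile 7.14) and in 1 KO library of DN cells, and the 4 others were in no KO library of any subset. At Gzmb, H3K4me3 was listed in 3 NKp46+ libraries and not in WT replicate 1. All of the WT peaks at these 5 genes lay below percentile 65 of their lists. In the other direction, 86 genes held CFP1 in all 4 CCR6+ and DN WT libraries and in neither NKp46+ WT library.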

How the data were processed

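The authors deposited 1 narrowPeak list per library, and each deposited peak carries a fold enrichment (a ratio) and its p-value and q-value as deposited −log10 values. The submitters' processing notes name MACS2 2.2.7.1, ChIPseeker 1.28.3, Bowtie2 2.3.5.1, fastp 0.19.7 and Picard, with the build mm10. Not given in the sources used here are their roles, their settings and any control library. Without read counts in the lists the depth stays unknown, and deeper sequencing can yield more and wider peaks.

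Peaks on the 19 autosomes and X were used, which left out 31 to 49 per CFP1 list of NKp46+ cells. Genes are the 21631 protein-coding genes of RefSeq (GRCm38.p6); strand was known for 79.9% of them, under the 90% set for using starts, so windows of 1000 b around both gene ends were used. The 4 lists were merged into regions. Coordinates are 1-based. Group values were compared by exact two-sided permutation. Wilson intervals cover counting error only. The replicate numbers share no stated batch or animal. Alternatives were other thresholds, windows, overlaps, equal list lengths and leaving out libraries. The overlap counting was checked by removing the peaks at randomly picked genes from the list of WT replicate 2. No simulated libraries were used. Computation used SciPy 1.17.1, NumPy 2.4.6, matplotlib 3.10.9 and pandas 2.3.3 under Python 3.11.15.

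The members and all 28 gene lists were chosen with earlier results of these data known. Named genes are Cxxc1, the highest by within-list rank in each presence class, up to 3 members per list that were in both WT and neither KO library, and the highest 5 found in NKp46+ WT cells only; predicted genes were passed over. A few genes named by it are not reported here, while list counts cover all members.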

Additional observations from a re-analysis of the deposited data

Results flagged for a closer look

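The share of CFP1 peaks that overlap H3K4me3 moved in opposite directions in NKp46+ and CCR6+ cells. In NKp46+ cells KO less WT was −1.35 and −0.75 percentage points in replicates 1 and 2, and in CCR6+ cells 0.44 and 2.66 points, a difference of −2.61 points between the subset means. Both pairs of 1 subset lie on the other side of 0 from both pairs of the other, and the difference itself was not tested. In DN cells the values were 1.56 and −4.02 points. The DN pairs span a wider range than that difference. In NKp46+ cells each share was taken against H3K4me3 of the same genotype, whose lists were longer in KO. The part of that length in the shares was not tested.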

How the results depend on the processing

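Depth is unknown and limits every absence: with 2 libraries a group, no result could pass a threshold under any alternative. Direction held for the peak number, covered length and gene number under all alternatives run, with leave-one-out ranges of −2.84 to −0.07, −3.22 to −0.03 and −2.60 to −0.47 on the log2 scale. With a replicate block the values did not change and p was 0.5, the smallest possible; the deviations of same-numbered libraries correlated at 0.21 over regions, but with 2 pairs the libraries share only a number. Leaving out libraries gave −0.34 to 0.02 for log2 width (0.0188 without KO replicate 1), −7.21 to 5.102 points for the H3K4me3 share (5.102 without WT replicate 1, 4.80 without KO replicate 2) and −17.9 to 7.1 points for the share at gene ends (6.84 and 7.1 likewise). The subset difference was 1.44 without NKp46+ replicate 1 and −1.11 without replicate 2. Genes in both WT and neither KO library ran from 847 to 2416 and the reverse from 7 to 219; regions ran from 830 to 2469 and from 27 to 1098. With the top 714 peaks of each list, genes in WT and not KO numbered 66 over both replicates, 483 in replicate 1 and 214 in replicate 2, and the reverse 13, 393 and 140. With the whole gene as window the reverse counts were 2 over both replicates and 28 in replicate 1. Gene starts of known strand, an alternative chosen after seeing the data, gave 684 genes and −1.52 for the log2 ratio of genes. Of the counts, 51 stayed within 1.5 times the main value and 21 did not. Of 44 named genes in both WT and neither KO library, 3 (Mrps28, Kpna3, Ndufs1) had that pattern with the top 714 peaks, and 26 at a fold enrichment of 5 or more, where Klf2, Btg1, Btg2, Kdm5b, Il10rb, Nfxl1 and Wif1 were listed in no library; under the other thresholds and windows it was 40 to 43. Among those 44, Ccna2, Tmem262, Zfp959 and Zfp771 lost the pattern with a window of 500 b and Hmgxb4 with 2000 b. Ccne2, Zfp959 and Zfp771 lost it with peak summits, Foxp1 with the whole gene and Tmem262 with −log10 q of 2 or more. The causes were not tested, and alternatives with fewer peaks or libraries change the counts of presence patterns by construction.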
